A study of Mus musculus with 4 samples.

Results

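The STAT and SOCS family genes described here are Stat3, Stat4, Stat5a, Stat5b, Stat6, Socs1, Socs2, Socs3, Cish and Jak2, which are 10 of the 18193 genes on the arrays. They were taken by symbol, with every probe set annotated to each of them, which gave 24 of the 34945 probe sets that name a single gene. None of the 10 mRNAs was 2-fold apart between mice colonized with Lactobacillus NK318.1 and germ-free (GF) mice, in Peyer's patch (PP) or in intestinal epithelial cells (IEC). Of all measured genes, 0.149% were 2-fold higher and 0.573% lower in colonized PP, and 2.63% and 1.54% in colonized IEC. The farthest apart was Socs2 in PP, whose signal was 1.60-fold lower in the colonized array. For each of the 10, the brightest probe set differed more between the tissues than between colonized and GF arrays of either tissue. Stat4, Stat5b, Stat5a, Stat3 and Jak2 were at least 2-fold higher in PP than in IEC, and Socs2 was at least 2-fold lower. This was by these probe sets, in colonized and in GF mice alike. Upward and downward taken separately, 16.0% to 18.5% of measured genes passed this limit in each direction. After quantile normalization Jak2 was under this limit, at log2 ratios of 0.94 in colonized and 0.88 in GF mice. With the mean over probe sets, Stat5a was at 0.91 in colonized mice, and Socs2 at −0.94 in colonized and −0.38 in GF mice. The second probe set of Stat5b gave −0.20 and −0.48 in that order.

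The 4 arrays carried RNA of PP from NK318.1-colonized mice, PP from GF mice, IEC from NK318.1-colonized mice and IEC from GF mice. All mice were C57BL/6 and were kept in vinyl isolators, and their age is not given with the samples. The colonized mice were germ-free mice sampled 2 weeks after they received 100000000 L.NK318.1, a Lactobacillus isolate. Each group was 1 array of RNA pooled from several mice, so no spread between mice, test or p-value exists, and every difference below is a ratio between 2 arrays. The comparison of colonized with GF mice asks what this bacterium does to cytokine signalling genes in gut lymphoid tissue and epithelium. A signal is the linear MAS5 intensity of a probe set, a group of short oligonucleotides read together. A ratio is given as log2 of NK318.1 over GF, or of PP over IEC, after signals under a floor of 15.5 were raised to it.

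Cytokines bind receptors that carry Janus kinases (JAK) on their inner side. The kinases phosphorylate the receptor and the signal transducers and activators of transcription (STAT), which pair, enter the nucleus and switch on target genes. Among those targets are Cish and the SOCS genes, whose proteins bind the receptor or its kinase and damp the signal that induced them, so their mRNAs often serve as a readout of recent STAT activity. In the gut, STAT3 carries signals of IL-6, IL-10 and IL-22, and it acts in epithelial repair, in the restraint of macrophages and in the IL-17 programme of T cells. STAT4 answers IL-12, STAT6 answers IL-4 and IL-13, and STAT5 proteins answer IL-2, IL-7, GM-CSF and growth hormone. Arrays measure mRNA only, and phosphorylation of a STAT protein leaves no direct trace in these values.

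The letters bound by most STAT dimers have the form TTCNNNGAA, which reads the same on both strands. The windows of RefSeq promoters (GRCm38.p6, 300 bases, 250 before to 50 after an annotated start) were searched for it. Of 32851 windows, 2726 (8.30%) held at least 1 match and 150 (0.457%) held 2 or more. The 9 genes of the 10 that the promoter table lists had 12 windows, and only the Cish window and the Socs3 window held a match. The stretches around these matches are shown because both genes are known STAT targets, with each match in capitals.
Cish (chr9:107296654-107296683, plus strand): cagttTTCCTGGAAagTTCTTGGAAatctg
Socs3 (chr11:117969502-117969531, minus strand): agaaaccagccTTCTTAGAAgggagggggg
Positions are counted from the annotated start that each window was built on. The Cish matches begin at bases 1 and 12 from that start, and the Socs3 match begins 154 bases before its own. The whole Socs3 window (chr11:117969317-117969616) lies inside the span of the Socs3 gene given below. That start is therefore not the outer end of the gene, and the match is not upstream of the whole gene. A match is a run of letters and not a shown binding site. The windows of Stat3, Stat4, Stat5a, Stat5b, Stat6, Socs1 and Jak2 held no match, and the Socs2 promoter was not analysed here.

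Stat5b, Stat5a and Stat3 are neighbours on chromosome 11. Stat5b (chr11:100780731-100859004), Stat5a (chr11:100859351-100885169) and Stat3 (chr11:100886806-100939594) follow each other within 159 kb, with 346 bases between Stat5b and Stat5a and 1636 bases between Stat5a and Stat3 (GRCm38.p6). Socs3 (chr11:117966079-117970336) is on the same chromosome. Stat6 (chr10:127642955-127660987) and Socs2 (chr10:95383903-95417321) are on chromosome 10. Stat4 (chr1:51987106-52107189), Cish (chr9:107296659-107302784), Socs1 (chr16:10783808-10785536) and Jak2 (chr19:29251803-29313095) are each alone among these genes on their chromosomes.

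Between 59.1% and 61.0% of probe sets were above the floor on each array, and log2 signals over all probe sets had a Pearson correlation of 0.994 between the PP arrays and 0.977 between the IEC arrays. The 3′ to 5′ ratio of β-actin, which grows as RNA breaks, was 4.10 in NK318.1 IEC and 2.73 in GF IEC, against 1.74 in NK318.1 PP and 1.60 in GF PP. The pools differed in sex-linked genes in both tissues. Xist had signals of 4586 in NK318.1 PP and 21.7 in GF PP, and of 4889 in NK318.1 IEC and 46.7 in GF IEC, while Y-linked Eif2s3y, Kdm5d and Uty were under the floor in both colonized arrays and above it in both GF arrays. The 12 gastric mucosa markers summed to 36049 in NK318.1 IEC and 491 in GF IEC (10 of 12 at least 2-fold higher), and the 9 pancreatic acinar markers to 11616 and 1451 in the same order (9 of 9 higher). Tff1, a trefoil peptide of the stomach surface, had 10183 in NK318.1 IEC and 218 in GF IEC. In the IEC arrays the 11 cytotoxic and intraepithelial lymphocyte markers summed to 474 in NK318.1 and 5691 in GF (9 of 10 measured below 0, 8 at least 2-fold lower), the 11 leukocyte and T cell markers to 489 and 1066 (8 of 10 below 0, 4 at least 2-fold lower), the 17 macrophage and dendritic cell markers to 794 and 1826 (9 of 14 below 0, median −0.20, with Lyz2 alone at 298 and 1265), the 13 enterocyte markers to 31423 and 43520 (12 of 13 below 0, 2 at least 2-fold lower) and the 10 stromal markers to 1605 and 561 (6 at least 2-fold higher). The labels held as far as PP against IEC. The 9 B cell markers summed to 12811 in NK318.1 PP and 13393 in GF PP against 189 in NK318.1 IEC and 211 in GF IEC. All 13 enterocyte markers were at least 2-fold lower in PP than in IEC. That limit was passed downward by 18.4% of all measured genes in NK318.1 and 16.0% in GF mice. In NK318.1 IEC the gastric markers summed to more than the enterocyte markers. PP over IEC ratios of NK318.1 mice are therefore not set against intestinal epithelium alone. In such tissue, fewer cells of a type and less RNA per cell cannot be told apart. The sex-linked difference between the pools and colonization cannot be told apart in PP or in IEC, nor can the gastric and acinar difference and colonization in IEC.

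In PP, none of the 10 genes was at least 2-fold higher and none at least 2-fold lower in the colonized array. The shares over all 12736 measured genes were 0.149% and 0.573%. At 1.5-fold, 0 of the 10 were higher and 1 (Socs2) was lower, against 0.927% and 2.74% of all measured genes. The median log2 ratio of the 10 was −0.16, with 4 above 0 and 6 below, and the median of all measured genes was −0.03, with 57.2% below 0. Of the 22 probe sets of these genes that could be compared in PP, 16 were below 0 and 6 above.

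**Figure D1:**
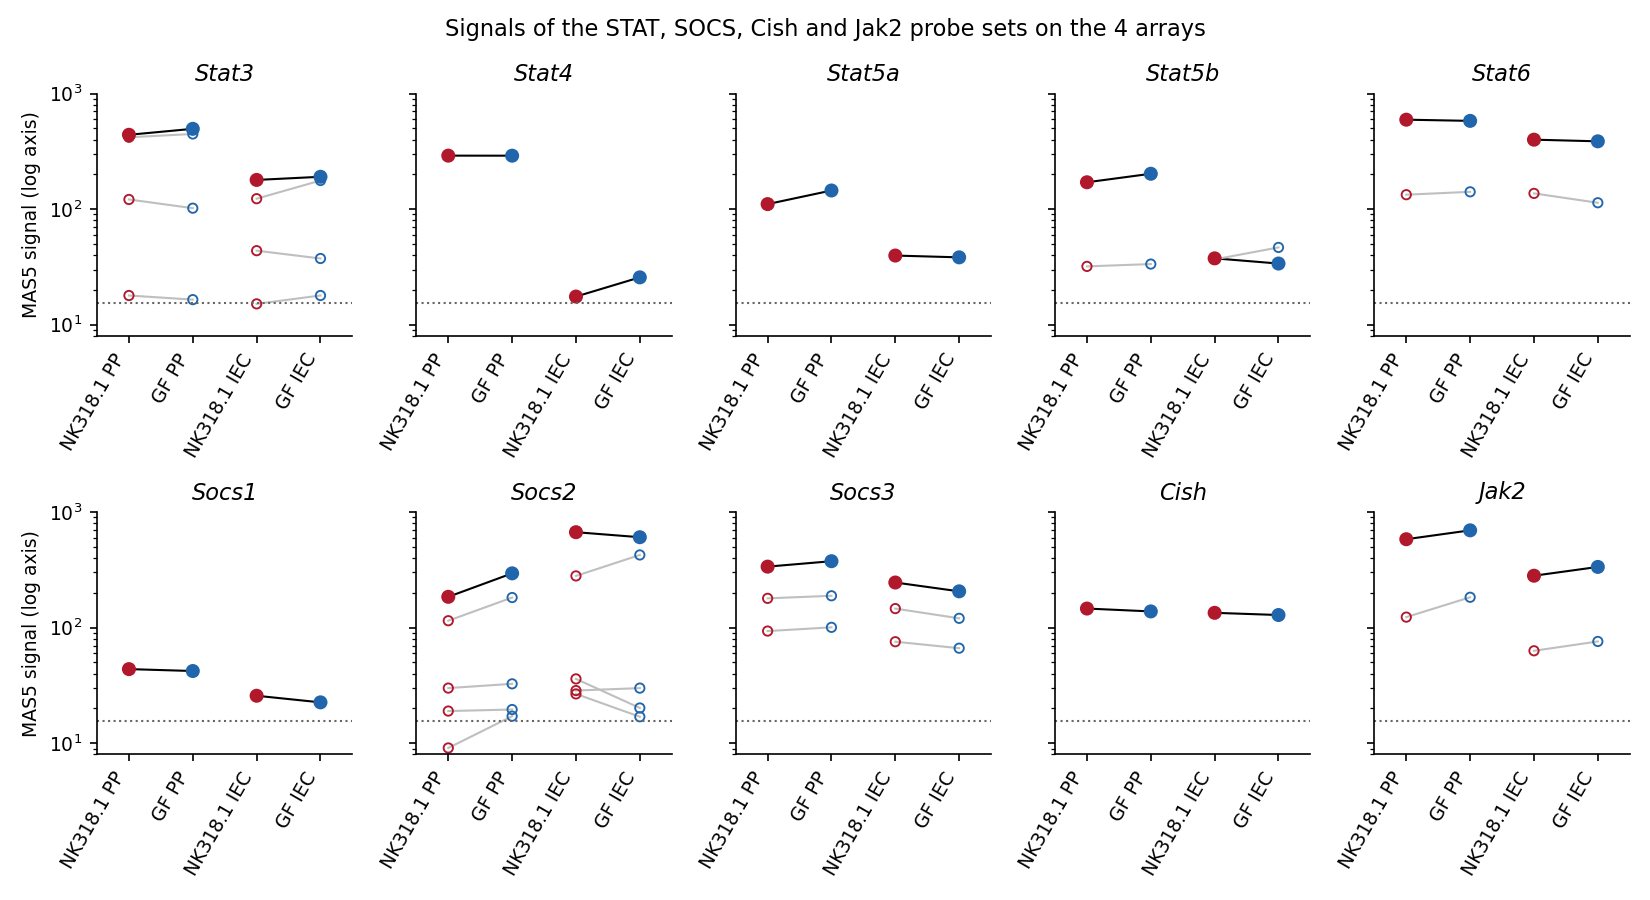
MAS5 signal (log axis) of every probe set of the 10 genes that was above the floor on at least 1 array, on the arrays NK318.1 PP, GF PP, NK318.1 IEC and GF IEC; filled points are the probe set with the highest mean signal of a gene, open points its other probe sets, red is NK318.1, blue is GF and the dotted line is the floor of 15.5. Lines join the 2 arrays of a tissue, and Stat4 shows the widest step between tissues, at 290.1 and 289.8 in PP against 17.5 and 25.7 in IEC.

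Jak2, the kinase of the growth hormone, GM-CSF and interferon-γ receptors, had signals of 582 in NK318.1 PP and 694 in GF PP (probe set 1421066_at), a log2 ratio of −0.26. Its other probe set had 123 in NK318.1 PP and 183 in GF PP, a ratio of −0.57. Both probe sets were therefore lower in the colonized array, by differing amounts, and both stayed within 2-fold.

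Among the STAT genes, Stat3 had 439 in NK318.1 PP and 495 in GF PP (1426587_a_at), a log2 ratio of −0.17. Its 3 other probe sets gave −0.10, 0.12 and 0.25, so the probe sets of Stat3 lay on both sides of 0, and their mean gave 0.03. Stat4, the mediator of IL-12 in T and natural killer cells, had 290.1 in NK318.1 PP and 289.8 in GF PP (1448713_at), the least distance of the 10 genes. Stat6, which carries IL-4 signals in B and T cells, had 594 in NK318.1 PP and 579.8 in GF PP (1426353_at). Its ratio was 0.03, and −0.08 with its other probe set.

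The STAT5 pair, which serves IL-2, IL-7 and GM-CSF receptors, was lower in the colonized array. Stat5a had 110.5 in NK318.1 PP and 145 in GF PP (1421469_a_at), a log2 ratio of −0.39, and its other probe set was under the floor on all 4 arrays. Stat5b had 171 in NK318.1 PP and 202 in GF PP (1422103_a_at), a ratio of −0.24, and −0.07 with its dimmer probe set. Both Stat5a and Stat5b lay inside the central 95% of all measured genes, which ran from −0.60 to 0.41.

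Socs2, the growth hormone and STAT5 feedback gene, was the only one of the 10 outside that central range. It had 185 in NK318.1 PP and 295 in GF PP (1449109_at), a log2 ratio of −0.67, at percentile 1.78 of all measured genes. The second probe set of Socs2 had 115 in NK318.1 PP and 182 in GF PP, also −0.67. Its 3 dimmer probe sets, with signals of 32.6 or less in PP, gave −0.14, −0.12 and −0.04, and a further one was under the floor everywhere.

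The remaining feedback genes were close between the PP arrays. Socs3, which blocks gp130 receptors and so limits STAT3, had 337 in NK318.1 PP and 375 in GF PP (1455899_x_at), a log2 ratio of −0.16, and its other probe sets gave −0.11 and −0.07. Socs1, the inhibitor of JAK kinases downstream of interferons, had 43.8 in NK318.1 PP and 42.1 in GF PP (1450446_a_at), a ratio of 0.05. Cish, induced by IL-2 through STAT5, had 146 in NK318.1 PP and 138 in GF PP (1448724_at), a ratio of 0.08. Thus Cish, with 2 motif matches, and Socs3, with 1, had ratios of opposite sign in PP, both small.

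Cell type markers moved in PP beside these values. The 17 macrophage and dendritic cell markers summed to 5487 in NK318.1 PP and 7031 in GF PP (15 of 16 measured below 0, median −0.41, 1 at least 2-fold lower, 2 and 1 of the 17 under the floor), and Lyz2, the lysozyme of myeloid cells, had 2496 and 3017 in that order. The 11 leukocyte and T cell markers summed to 13422 in NK318.1 PP and 12071 in GF PP (10 of 11 above 0, median 0.23), and the 9 B cell markers to 12811 and 13393 (8 of 9 below 0, median −0.14). Ptprc, the leukocyte antigen CD45, had 5235 in NK318.1 PP and 5152 in GF PP. Of all measured genes in PP, 0.573% were at least 2-fold lower in the colonized array. The part of these markers in the ratios of Socs2, Stat5a, Stat5b and Jak2 was not tested.

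**Figure D2:**
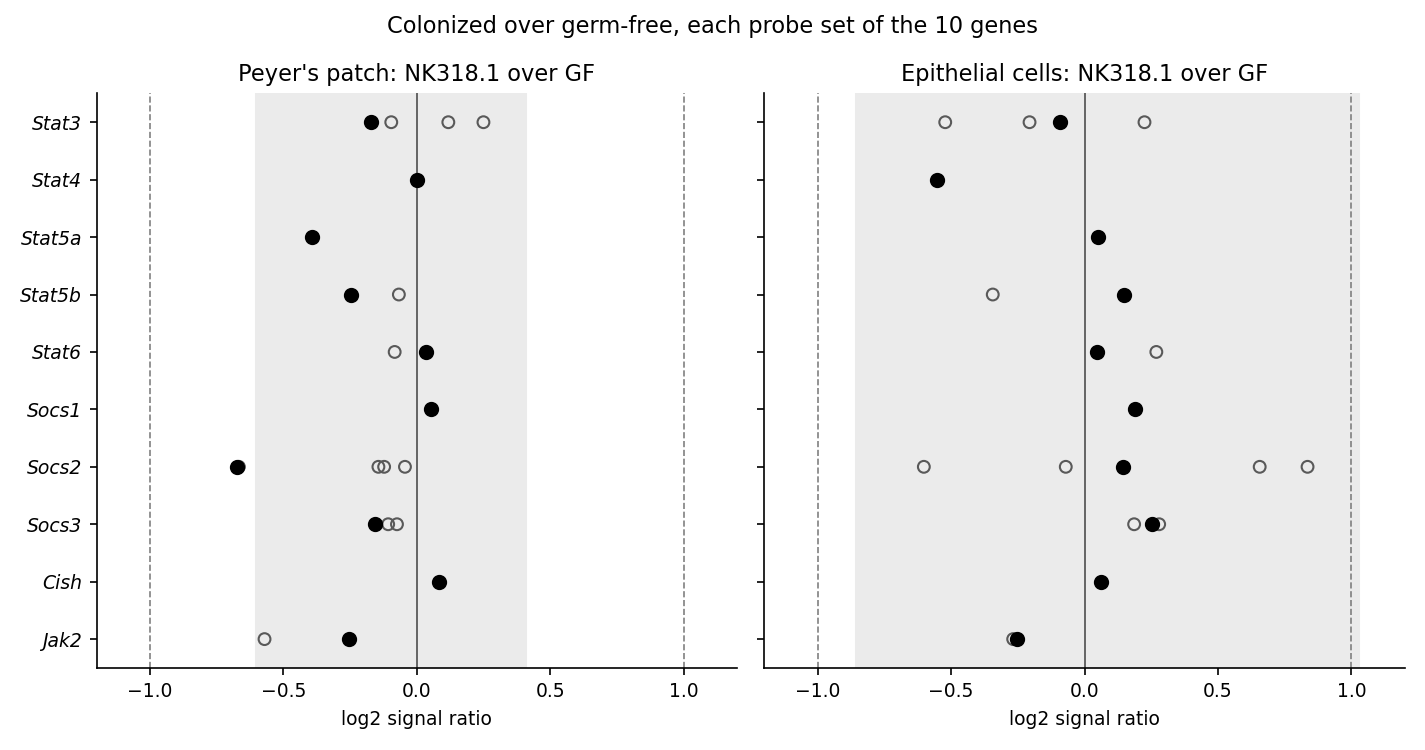
Log2 ratio of NK318.1 over GF for each probe set of the 10 genes, in PP on the left and IEC on the right; filled points are the brightest probe set of a gene, open points the others, dashed lines mark 2-fold and the grey band is the central 95% of all measured genes. No point passes 2-fold in either tissue, and Socs2 in PP, with 2 probe sets at −0.67, is the only gene whose filled point lies outside the band.

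In IEC, again none of the 10 genes was at least 2-fold higher and none at least 2-fold lower in the colonized array, against 2.63% and 1.54% of all 13874 measured genes. None passed 1.5-fold either, which 9.31% of all measured genes did upward and 6.80% downward. The median log2 ratio of the 10 was 0.06, with 7 above 0 and 3 below, by their brightest probe sets. With the second brightest probe set of each gene that has several, Socs2 and Stat5b turned to below 0. The median was then below 0 too, as given at the end. Over all measured genes the median was 0.02, with 47.6% below 0. All 10 lay inside the central 95% of all measured genes, which was wider here than in PP and ran from −0.86 to 1.03. Of 22 probe sets compared, 13 were above 0 and 9 below.

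The 3 genes with lower signals in colonized IEC were Stat4, Jak2 and Stat3. Stat4 had 17.5 in NK318.1 IEC and 25.7 in GF IEC, a log2 ratio of −0.55, with the colonized value just above the floor. Of 10 leukocyte and T cell markers measured in IEC, 8 were below 0 and 2 above. At least 2-fold lower were 4 of them, beside 1.54% of all measured genes. Cd8a had 17.9 in NK318.1 IEC and 79.3 in GF IEC and Ptprc 23.1 and 271, whereas Cd3e had 273 and 230. The part of these markers in the ratio of Stat4 was not tested. Jak2 had 281 in NK318.1 IEC and 335 in GF IEC, a ratio of −0.25, and its other probe set gave −0.27, so Jak2 was lower in colonized mice in both tissues and with both probe sets.

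The probe sets of Stat3 disagreed in IEC. Its brightest probe set had 179 in NK318.1 IEC and 190.4 in GF IEC, a log2 ratio of −0.09. The second, of nearly the same brightness in PP, had 123 in NK318.1 IEC and 177 in GF IEC, a ratio of −0.52. The 2 others gave 0.22 and −0.21, the last from signals close to the floor.

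Socs3 had 245 in NK318.1 IEC and 206 in GF IEC, a log2 ratio of 0.25, the highest of the 10. Its other probe sets had 146 and 75.5 in NK318.1 IEC against 120.3 and 66.4 in GF IEC, ratios of 0.28 and 0.19, so all 3 were higher in the colonized array. Socs1 had 25.7 in NK318.1 IEC and 22.6 in GF IEC (0.19), and Cish had 134 and 129 in that order (0.06). For the SOCS and Cish genes the brightest probe sets were thus all above 0 in IEC, by at most 1.19-fold.

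Socs2 in IEC depended on the probe set. The brightest had 669 in NK318.1 IEC and 605 in GF IEC, a log2 ratio of 0.14, but the second had 280.0 in NK318.1 IEC and 425 in GF IEC, a ratio of −0.60. The 3 dimmer probe sets gave 0.84, 0.66 and −0.07. No direction can be given for Socs2 in IEC from these values.

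Stat5a had 39.6 in NK318.1 IEC and 38.3 in GF IEC, a log2 ratio of 0.05 that was −0.01 after quantile normalization. Stat5b had 37.5 in NK318.1 IEC and 33.8 in GF IEC, a ratio of 0.15, whereas its other probe set gave −0.34. Stat6 had 399 in NK318.1 IEC and 386 in GF IEC (0.05), and 0.27 with its other probe set. For Stat5b and Stat6 the ratio in IEC was therefore smaller than the distance between the probe sets of the gene.

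Set side by side, the colonization ratios of Socs2, Stat5a, Socs3 and Stat5b were below 0 in PP and above 0 in IEC by their brightest probe sets, while the second probe sets of Socs2 and Stat5b were below 0 in both tissues. The PP ratio minus the IEC ratio was −0.82 for Socs2, −0.44 for Stat5a, −0.41 for Socs3 and −0.39 for Stat5b, and with the second probe set it was −0.06 for Socs2 and 0.28 for Stat5b. For Stat4 it was 0.55, and for Jak2, Stat6 and Cish it was −0.00, −0.01 and 0.02. Over the 12260 genes measured in both tissues this difference had a median of −0.06 and a central 95% from −1.18 to 0.87, and none of the 10 lay outside it. Socs3 was the only one of the 4 opposed genes with several probe sets in which each of them was below 0 in PP and above 0 in IEC. With 1 array per group these differences between tissues were not tested.

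Between tissues, 5 of the 10 genes were at least 2-fold higher in PP than in IEC of NK318.1 mice and 1 was at least 2-fold lower, where 16.8% and 18.4% of 14030 measured genes were. The counts were 5 and 1 in GF mice too, where 18.5% of 14036 measured genes were higher and 16.0% lower. The median PP over IEC log2 ratio of the 10 was 0.91 in NK318.1 mice and 0.98 in GF mice, beside −0.11 and −0.04 for all measured genes. In each kind of mouse 9 of the 10 were above 0, of which Cish was at −0.06 in NK318.1 and −0.16 in GF mice after quantile normalization. With the second probe set Stat6 was at −0.04 in NK318.1 mice, and Stat5b at −0.20 in NK318.1 and −0.48 in GF mice. Of all measured genes, 55.8% in NK318.1 and 51.8% in GF mice were below 0.

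**Figure D3:**
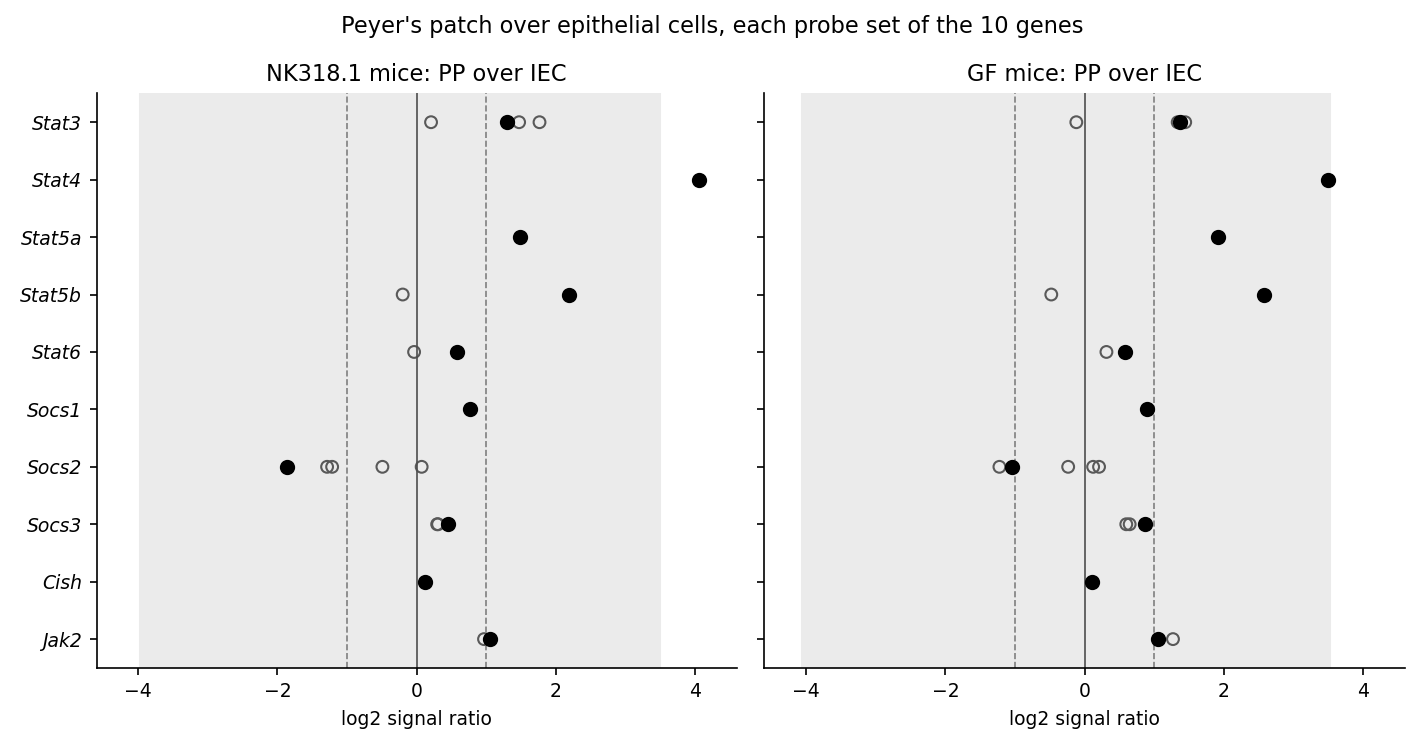
Log2 ratio of PP over IEC for each probe set of the 10 genes, in NK318.1 mice on the left and GF mice on the right; filled points are the brightest probe set of a gene, open points the others, dashed lines mark 2-fold and the grey band is the central 95% of all measured genes. Stat4 lies farthest to the right (4.05 in NK318.1 and 3.50 in GF mice), Socs2 is the only filled point left of 0, and the 2 probe sets of Stat5b fall on opposite sides of 0.

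Stat4 stood farthest toward PP, at 16.6-fold higher than IEC in NK318.1 mice and 11.3-fold in GF mice. Both folds rest on 1 probe set, with signals close to the floor in IEC (17.5 in NK318.1 and 25.7 in GF mice). The order of Stat4 levels over the arrays was NK318.1 PP, GF PP, GF IEC and NK318.1 IEC, with the PP arrays hardly apart. In NK318.1 mice its log2 ratio of 4.05 lay outside the central 95% of all measured genes, whose upper end was 3.50. Its lowest ratio among the alternatives tried was 2.96 in NK318.1 mice, under this end, and 2.96 in GF mice. Stat5b was 4.55-fold higher in PP of NK318.1 mice and 5.98-fold in PP of GF mice with its brightest probe set, and its dimmer probe set gave log2 ratios of −0.20 and −0.48. Stat5a was 2.79-fold higher in PP of NK318.1 mice and 3.79-fold in GF mice, and Stat3 2.46-fold and 2.60-fold in that order.

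By their brightest probe sets, Stat3, Stat5a, Stat5b, Jak2 and Socs3 shared the order GF PP, NK318.1 PP and then the IEC arrays. Jak2 was 2.07-fold higher in PP than in IEC, in NK318.1 and in GF mice, and its other probe set gave log2 ratios of 0.97 and 1.27. Within PP and within IEC, neighbours in this order differed by at most 1.31-fold with the brightest probe sets, and no replicate shows whether that exceeds the spread between mice.

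Socs2 had the reverse pattern and was 3.62-fold lower in PP than in IEC of NK318.1 mice and 2.05-fold lower in GF mice. These folds are of its brightest probe set, by which its levels ran from NK318.1 IEC through GF IEC and GF PP to NK318.1 PP. The second probe set of Socs2 gave log2 ratios of −1.29 in NK318.1 mice and −1.22 in GF mice. With it the order of the IEC arrays was the other way, at 425 in GF IEC and 280.0 in NK318.1 IEC. The dimmer probe sets above the floor gave 0.07, −0.49 and −1.21 in NK318.1 mice, and 0.12, 0.21 and −0.24 in GF mice. Socs1, Stat6 and Socs3 were higher in PP by less than 2-fold with their brightest probe sets. Their log2 ratios were 0.77, 0.57 and 0.46 in NK318.1 mice and 0.90, 0.59 and 0.87 in GF mice. The other probe set of Stat6 gave −0.04 in NK318.1 mice and 0.31 in GF mice. Cish was level across all 4 arrays, with its highest signal 1.14-fold its lowest.

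By their brightest probe sets the STAT genes and Jak2 were thus on the side of PP and Socs2 on the side of IEC. The NK318.1 IEC array also carried gastric and acinar markers, as given above. The leukocyte and T cell markers had a median PP over IEC log2 ratio of 4.92 in NK318.1 mice and 3.99 in GF mice, and the B cell markers 4.62 and 4.74. Those of the enterocyte markers were −6.17 and −6.48. The ratios of the 10 genes were closer to 0 than each of these medians.

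In the lists of other pathway genes, 4 were at least 2-fold apart in PP, all lower. They were Usp18 (of 15 measured brakes), Il15 (of 15 ligands), and Csf2rb and Csf2ra (of 9 hormone, GM-CSF and interferon receptors). Of all measured genes 0.573% were lower by this limit. Il15 did not pass it in every setting, nor Csf2ra with both probe sets, as given below. Of the other JAK and STAT genes, 4 were measured, none was 2-fold apart, and their median log2 ratio was −0.03 in PP and 0.13 in IEC. Jak1, the kinase shared by many cytokine receptors, had 1152 in NK318.1 PP and 1143 in GF PP, and Stat2, which carries type I interferon signals, had the lowest ratio at −0.55 (−0.06 with another probe set). Jak3, the kinase of the common γ chain, had 65.7 in each PP array. In IEC the 4 ran from Jak3 at 0.01 to Tyk2 at 0.23.

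Of 15 other SOCS genes and STAT brakes, 1 was at least 2-fold lower in PP (0.573% of all measured genes) and none was higher, with a median of −0.11. It was Usp18, which limits interferon receptor signalling, with 79.7 in NK318.1 PP and 231 in GF PP, a log2 ratio of −1.54. Socs5 was the highest in both tissues, at 0.29 in PP and 0.45 in IEC. In IEC none of the 15 was 2-fold apart, the median was −0.03, and the lowest was Sh2b3, an adaptor that restrains JAK2, at −0.80.

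Of the 27 ligands on the arrays, 15 were measured in PP and 13 in IEC. Il6, Il10, Il23a, Il2, Ifng, Il3, Il5, Lep, Prl and Tslp were under the floor on all 4 arrays. Il15, a survival cytokine of intraepithelial lymphocytes and natural killer cells, had 23.9 in NK318.1 PP and 48.3 in GF PP, a log2 ratio of −1.01, and was the only ligand 2-fold apart, though not after quantile normalization or with the floor at the 60th percentile. In PP the median was −0.07 and the highest ratio was that of Il13, at least 1.36-fold higher against a GF signal under the floor. In IEC the median was 0.05, Igf1 was highest at 0.55, and Lif was at least 1.48-fold lower in the colonized array.

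The receptors for STAT3 cytokines stayed within 2-fold in both tissues. The 10 measured in PP had a median log2 ratio of −0.10, from Csf3r, the G-CSF receptor, at −0.50 to Il27ra at 0.27. In IEC the 7 measured had a median of −0.05. Il6st, which encodes gp130, had 42.6 in NK318.1 IEC and 22.5 in GF IEC, a ratio of 0.92, while its other probe sets gave −0.19 to −0.07, and Il27ra was at least 1.56-fold lower.

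The receptors of the common γ chain, IL-4 and IL-12 group had a median of −0.16 over 8 genes in PP, from Crlf2, the TSLP receptor, at −0.55 to Il7r at 0.29. In IEC 7 were measured, with a median of −0.25, from Il7r at −0.63 to Il15ra at 0.31. None of them was 2-fold apart in either tissue.

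Of 9 hormone, GM-CSF and interferon receptors, 2 were at least 2-fold lower in PP (0.573% of all measured genes), and these were the chains of the GM-CSF receptor, which signals through JAK2 and STAT5. Csf2rb had 312 in NK318.1 PP and 671 in GF PP, a log2 ratio of −1.10, and −1.37 with its other probe set. Csf2ra had 55.3 in NK318.1 PP and 123 in GF PP, −1.15, but its other probe set gave 0.35. The median of the 9 was −0.03, and Il5ra was highest at 0.14. Macrophage and dendritic cell markers were lower in the same array, as given above, with the dendritic growth factor receptor Flt3 at 98.9 in NK318.1 PP and 209.9 in GF PP, and their part in these ratios was not tested. In IEC the 9 had a median of −0.30 and none was 2-fold apart, from Ifnar2 at −0.73 (0.61 with another probe set) to Csf2rb, at least 1.06-fold higher.

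**Figure D4:**
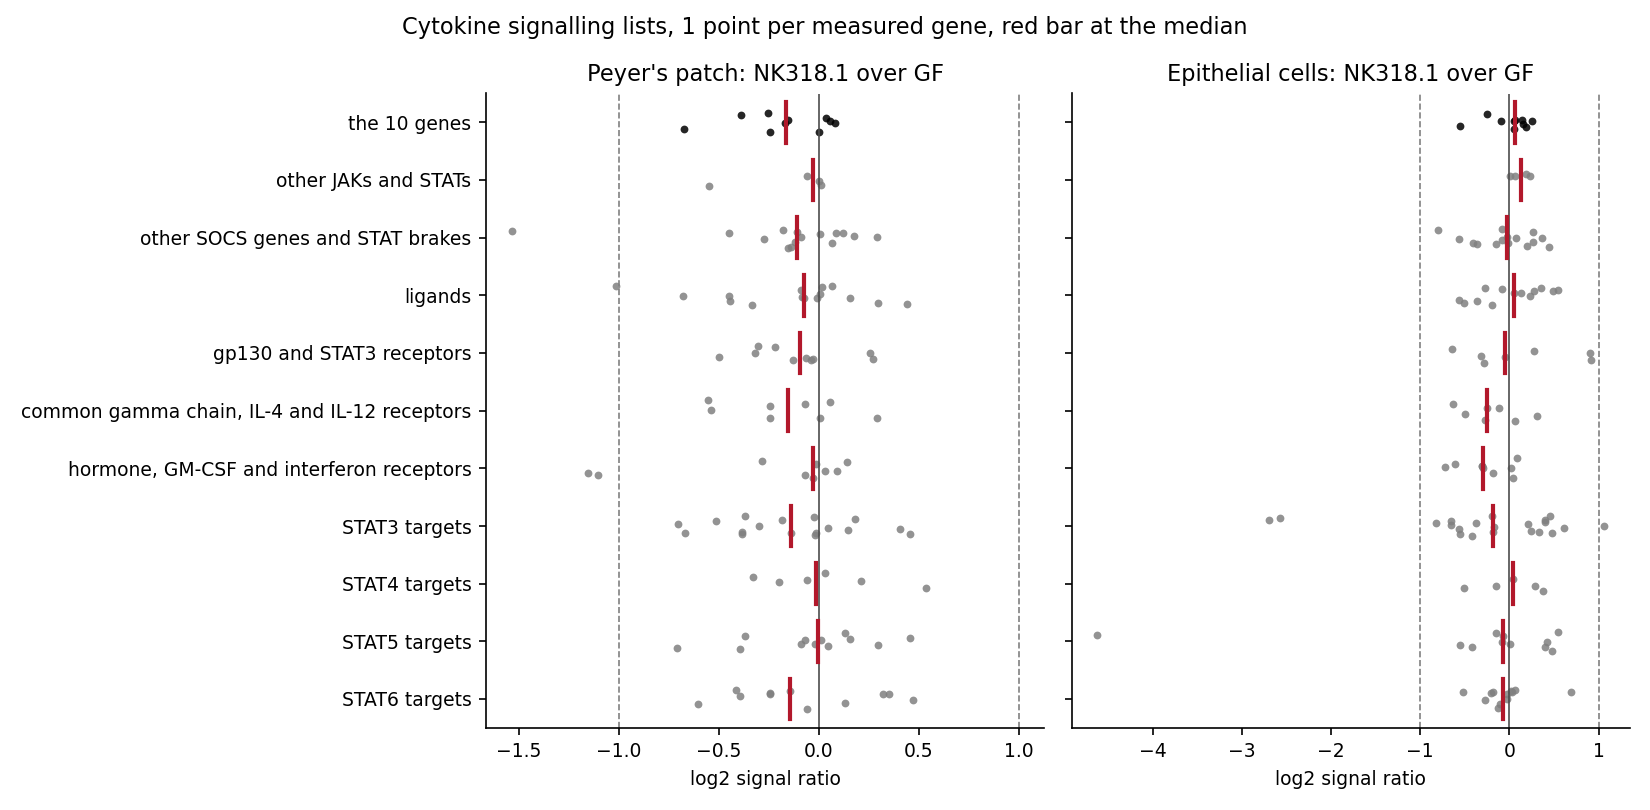
Log2 ratio of NK318.1 over GF for each measured gene of the 10 and of the lists of JAK and STAT genes, brakes, ligands, receptors and STAT target genes, in PP on the left and IEC on the right (the axes differ); red bars are medians and dashed lines mark 2-fold. All list medians lie between −0.30 and 0.13, and the points past 2-fold are single genes such as Usp18 (−1.54) in PP and Gzmb (−4.62) in IEC.

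The target genes of the STAT proteins were described list by list. Of 17 measured STAT3 targets in PP none was 2-fold apart, and the median log2 ratio was −0.14, with 12 below 0. The growth gene Myc was lowest, with 152 in NK318.1 PP and 248 in GF PP (−0.70), and Bcl6, the germinal centre repressor, was highest with 721 and 525 in that order (0.46). The STAT4 targets (6 measured) had a median of −0.01, from Hlx at −0.33 to Il18r1 at 0.54. The 12 STAT5 targets had a median of −0.00, with 6 on each side of 0, from Gzmb at −0.71 to Bcl6. The 11 STAT6 targets had a median of −0.15, from the chemokine Ccl22 at −0.60 to Gata3, the TH2 factor, at 0.47.

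In IEC 2 of 21 measured STAT3 targets were at least 2-fold lower and 1 was higher, beside 1.54% and 2.63% of all measured genes. Reg3b and Reg3g, antibacterial lectins of the epithelium, had 621 and 159 in NK318.1 IEC against 4017 and 947 in GF IEC, log2 ratios of −2.69 and −2.57, and another probe set of Reg3b gave −1.49. Fut2, which adds fucose to epithelial surfaces, had 80.0 in NK318.1 IEC and 38.3 in GF IEC, a ratio of 1.06, and −0.20 with another probe set. The list had a median of −0.18, with 9 above 0 and 12 below, so its members lay on both sides of 0. Stomach, acinar and lymphocyte markers differed between the same arrays, and their part in these ratios was not tested.

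Of 11 measured STAT5 targets in IEC, 1 was at least 2-fold lower, beside 1.54% of all measured genes. It was Gzmb, the protease of cytotoxic cells, with 28.0 in NK318.1 IEC and 689 in GF IEC, a log2 ratio of −4.62, and Gzma had 128 and 2734 in that order. The list had a median of −0.07. The STAT4 targets (5 measured) had a median of 0.04, from Hlx at −0.51 to Il18r1 at 0.38, and the 12 STAT6 targets one of −0.07, from Ccl17 at −0.52 to Retnla, a resistin-like protein, at 0.69. None of these STAT4 and STAT6 targets was 2-fold apart.

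Likeness between patterns was measured as the Euclidean distance of log2 signals over the 4 arrays, centred on each gene, among 11417 genes above the floor on all of them. Among the 10, the closest pairs were Stat6 and Socs3 (0.21), Socs1 and Socs3 (0.23), Stat6 and Socs1 (0.27) and Stat3 and Jak2 (0.31). Outside the 10, Stat3 was closest to Slc25a12 (0.052) and Top2b (0.065), Stat4 to Malt1 (0.079) and Itgb7 (0.11), and Jak2 to Cdk2 (0.067) and Vbp1 (0.081). The nearest to Socs2 were Rrbp1 (0.14) and Smim5 (0.17), farther off than the nearest of any other of the 10. Rrbp1 had 228 in NK318.1 PP, 349 in GF PP, 744 in NK318.1 IEC and 660 in GF IEC. This was the order of arrays of the brightest probe set of Socs2. The nearest genes of the others were Polr3f and Pip5k1c for Stat5a, Ap3m2 and Wdfy2 for Stat5b, Golt1b and Dpf2 for Stat6, Tmpo and Ehbp1l1 for Socs1, Ankfy1 and Cd2bp2 for Socs3 and Mthfsd and Iqcf3 for Cish. With 4 arrays this likeness is a description of these pools.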

How the data were processed

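Total RNA was hybridized to Affymetrix 3′ expression arrays, 1 array of pooled mice for each of 4 groups. The authors deposited a linear MAS5 intensity (signal) for every probe set, and the MAS5 version and options were not given in the sources used here. Probe sets (45037, with 64 controls set aside) were named through the platform annotation, with symbols updated through gene IDs to RefSeq (GRCm38.p6). Of these, 9160 had no gene and 932 had several and were left out. Where a gene had several probe sets, the brightest by mean log2 intensity stood for it. As a floor, the 40th percentile of each array was taken and the median of the 4 was used, and a gene was measured where either array lay above it. Ratios were counted at 2-fold, the limit of the methods. limma, which they name, needs replicates and was not run. Sequences came from RefSeq (GRCm38.p6).

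The genes, the lists and the alternatives were chosen with earlier results of these data known. Named genes are the 10, and of each list those 2-fold apart and its highest and lowest ratio in each tissue; of markers, the brightest and the sex-linked genes. Cd8a, Cd3e, Gzma and Flt3 were added after their values were seen. The alternatives tried were centring of each array on its median, quantile normalization, floors at the 25th and 60th percentile or none, other choices of probe set, 1.5-fold and 4-fold limits, and all measured genes without sex-linked or gastric and acinar genes. The steps were tested on simulated data. Python 3.11.15, numpy 2.4.6, pandas 2.3.3 and matplotlib 3.10.9 were used.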

Additional observations from a re-analysis of the deposited data

How the results depend on the processing

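No paired analysis was possible because every group consisted of a single array. The number of arrays limits the precision, and signals close to the floor carry ratios with little weight. Of 120 alternative medians and counts over the 10 genes, 12 moved, which means by more than the SD of the 10 ratios for a median or by over 1.5 times for a count. Within this tolerance, quantile normalization counted 4 genes higher in PP than in IEC, in place of 5, in NK318.1 and in GF mice. The 1.5-fold limit counted 1 gene lower in colonized PP, in place of 0. With the second brightest probe set of each gene that has several, the median NK318.1 over GF log2 ratio in IEC was −0.27, in place of 0.06. Between tissues, the mean over probe sets counted 3 genes higher and 0 lower in PP of NK318.1 mice and 0 lower in GF mice. The second probe set counted 2 higher in NK318.1 mice and 3 in GF mice. The 4-fold limit counted 2 higher and 0 lower in each, and the 1.5-fold limit counted 8 higher in GF mice. For Stat5b the second probe set turned the PP over IEC log2 ratio to −0.20 in NK318.1 mice, in place of 2.19, and to −0.48 in GF mice, in place of 2.58. Of 389 alternative values of single genes, 21 had another sign than the main value, of which these 2 were for a value past 2-fold, and 6 others moved by more than the SD of all measured genes. Of 560 alternative medians and counts of the lists, 33 moved. Over all measured genes in PP, 118 and 4 were higher and 349 and 8 lower in colonized mice at 1.5-fold and 4-fold, and 29 were higher with no floor. In IEC, 1292 and 65 were higher and 943 and 29 lower at these limits, and 235 were higher with the mean over probe sets. Between tissues, the 1.5-fold limit counted 4030 genes lower in PP of NK318.1 mice, and 3982 higher and 3648 lower in PP of GF mice. The 4-fold limit counted 1000 higher and 1179 lower in NK318.1 mice, and 1020 and 1165 in GF mice. Quantile normalization moved the median PP over IEC ratio of all genes in GF mice to −0.16, in place of −0.04. The cause of these moves was not tested.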
